A study of Mus musculus with 6 samples.

Results

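The cell cycle and mitosis genes are a set of 40 named genes, 17 that serve DNA replication in S phase and 23 that serve entry into and passage through mitosis (G2/M). They were taken by symbol from a table of 35275 listed genes, each symbol matched exactly 1 row, and all 40 had enough counts to be tested. RNA had been sequenced from the epithelial region of the back skin of C57BL/6 mice, in 3 libraries of mice without interleukin-33 (labelled IL-33 KO, here the knockouts KO 1 to KO 3) and 3 of the wild type (WT 1 to WT 3). Every mouse, controls included, had been given 0.25% dinitrofluorobenzene (DNFB), a contact allergen, in acetone and olive oil on the back 3 times per week over 22 days. There is no untreated skin among the libraries used here. The age and sex of the mice, the cells in which Il33 was deleted and whether animals were pooled are not given in the sources used here, and the p-values measure only the spread between these libraries.

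Skin keeps its surface by division of basal keratinocytes, and the hair matrix is one of the fastest dividing tissues of an adult mammal while a follicle grows. Transcription of the division genes is periodic. E2F factors switch on the S phase genes once cyclin-dependent kinases have inactivated the retinoblastoma proteins, and the MuvB complex with B-Myb and Foxm1 switches on the G2/M genes later through a short promoter element named the cell cycle genes homology region (CHR), often near CCAAT boxes bound by NF-Y. In bulk RNA a higher or lower level of such genes can come from the number of dividing cells or from the RNA in each of them, and these cannot be told apart here.

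The promoter letters of the set follow this division into S phase and G2/M genes in part. RefSeq promoters (build GRCm38.p6, 250 bases before to 50 after a start) were at hand for 32 of the 40 genes, 14 S phase and 18 G2/M. The CHR letters TTTGAA or TTCGAA, read on both strands, were in 14 of the 18 G2/M promoters (77.8%), in 2 of the 14 S phase promoters (14.3%) and in 21.7% of 27025 genes with a promoter of the same length. CCAAT was found in 88.9% of the G2/M promoters, in 57.1% of the S phase promoters and in 41.1% of all. The E2F letters TTTCCCGC, TTTCGCGC, TTTGCCGC or TTTGGCGC were in 6 of 14 S phase promoters (42.9%), 1 of 18 G2/M promoters (5.56%) and 2.6% of all, and a TTTCGCGC match can overlap a TTTGGCGC match on the other strand. These matches describe letters in a window and do not show that a factor was bound. In the 250 bases before the start alone the CHR letters were in 8 of 18 G2/M promoters (44.4%), so part of the matches lie just after the start. There they were in 14.3% of the S phase promoters and 19.6% of all. The E2F letters were there in 4 of 14 S phase promoters (28.6%), 5.56% of the G2/M promoters and 2.16% of all.

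The stretches below are shown because they carry these letters in genes that the results turn on, first 6 G2/M genes with CHR and CCAAT matches of either strand in capitals, then 2 helicase genes with only the E2F matches in capitals. Each ends before the RefSeq start and is written 5′ to 3′ on the gene's strand.
Ube2c, chr2:164769832-164769911, plus strand: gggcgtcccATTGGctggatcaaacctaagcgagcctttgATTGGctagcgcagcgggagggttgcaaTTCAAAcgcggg
Cdk1, chr10:69352916-69352995, minus strand: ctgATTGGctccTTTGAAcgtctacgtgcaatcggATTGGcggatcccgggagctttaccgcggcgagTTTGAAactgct
Cdc20, chr4:118437344-118437423, minus strand: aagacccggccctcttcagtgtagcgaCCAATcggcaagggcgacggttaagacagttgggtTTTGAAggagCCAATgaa
Top2a, chr11:99024201-99024280, minus strand: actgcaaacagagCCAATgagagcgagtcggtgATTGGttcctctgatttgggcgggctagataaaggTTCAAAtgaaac
Mki67, chr7:135716466-135716545, minus strand: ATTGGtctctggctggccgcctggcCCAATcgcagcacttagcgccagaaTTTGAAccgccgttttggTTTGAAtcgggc
Hmmr, chr11:40733447-40733526, minus strand: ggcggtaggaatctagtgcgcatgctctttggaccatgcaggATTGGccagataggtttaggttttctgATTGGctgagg
Mcm5, chr8:75109294-75109373, plus strand: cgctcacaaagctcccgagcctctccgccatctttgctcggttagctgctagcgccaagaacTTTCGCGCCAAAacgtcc
Mcm6, chr1:128359739-128359818, minus strand: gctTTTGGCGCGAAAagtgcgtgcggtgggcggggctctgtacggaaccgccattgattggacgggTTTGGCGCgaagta
The Hmmr stretch holds CCAAT matches and no CHR match before the start.

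Depth was 20459574 to 24359612 counts per library. Of the deleted gene Il33, WT 1, 2 and 3 held 3906, 3086 and 2817 counts, and KO 1, 2 and 3 held 21, 22 and 11. The keratinocyte genes Krt5 and Krt14 reached at least 7790 and 12700 CPM in every library (CPM, counts relative to library size and scaled for composition), as the tissue label says, and dermal genes were present too, since Col1a1 had at least 3520 CPM. Some libraries stood apart in other tissue genes: Acta1, skeletal muscle actin, had 38.1 and 60.8 CPM in KO 1 and 3 and at most 0.548 elsewhere, and the fat cell gene Adipoq had 2.32 CPM in WT 1 and 10.5 to 36.6 in the others.

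All of the division genes were readily measured in both genotypes. On the per-length scale of the deposited FPKM values, Pcna, the sliding clamp of DNA polymerase, had the highest level at 77.6 ± 14.3 FPKM in the knockouts and 81.0 ± 7.31 in WT (SD, n = 3). Cdc20, an activator of the ubiquitin ligase that ends mitosis, came next at 48.1 ± 11.9 and 49.4 ± 3.64. Then came Rrm2 (34.9 FPKM over all 6 libraries), Top2a (34.1) and Rrm1 (30.0). Top2a lay above Rrm1 in every library, whereas Rrm2 lay above Top2a in some libraries and below it in others. Cdc6, a factor that loads the helicase onto origins, was the lowest at 1.96 ± 0.341 and 1.84 ± 0.075 FPKM. Pcna had more FPKM than Cdc20 in every library, from 61.3 to 89.4 against 34.9 to 58.2.

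**Figure D1:**
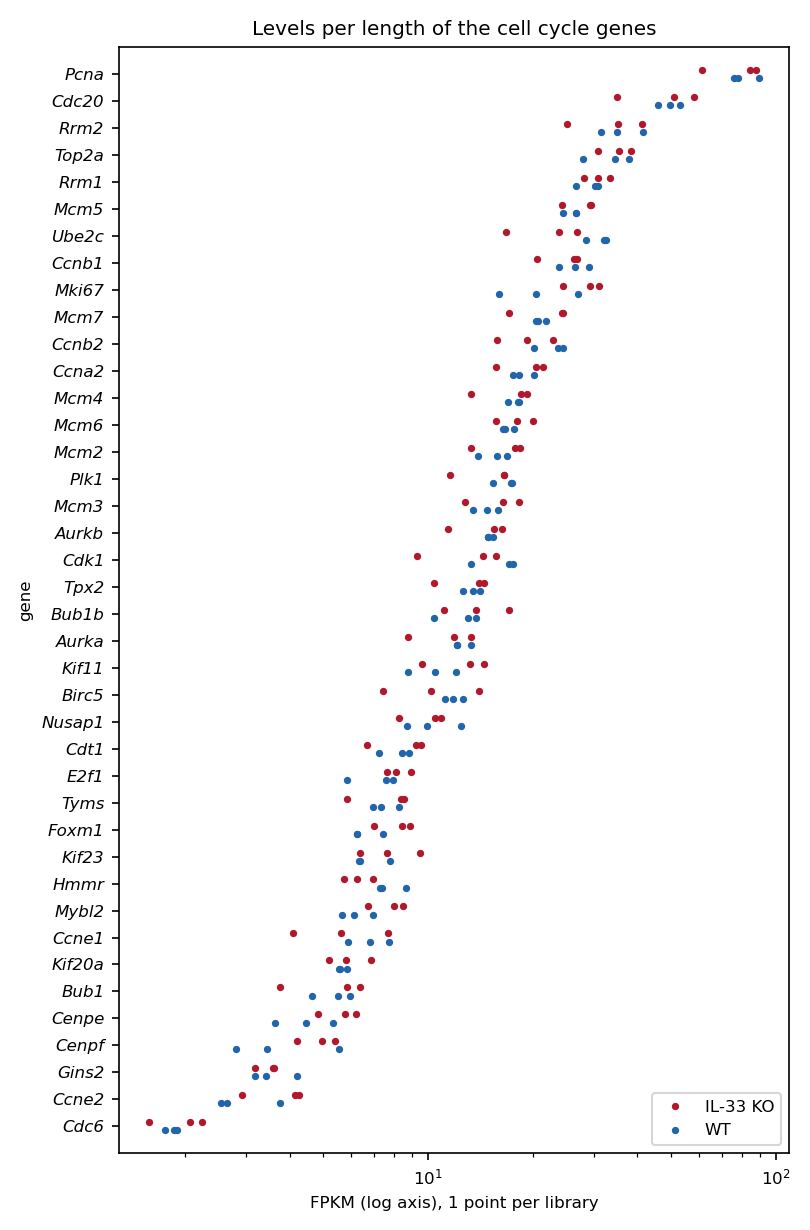
FPKM (log axis) of the 40 genes, ordered by their mean over 6 libraries, with 1 point per library, knockouts in red and WT in blue. Pcna stands at the top at 79.3 FPKM and Cdc6 at the bottom at 1.90, and the points of the genotypes lie among each other in nearly every gene.

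The comparison asked whether division genes differ by genotype in allergen-treated skin. In edgeR's quasi-likelihood test 0 of 40 members passed an adjusted p of 0.05, where 3 of all 15720 tested genes did (0.0191%; 0.0127% higher and 0.00636% lower in the knockouts), and the smallest adjusted p among members was 0.440. At an unadjusted p under 0.05 there were 2 members, Hmmr and Ube2c, both lower in the knockouts, which is 5.0% of the set against a background of 9.02% in either direction and 4.15% for lower values. DESeq2 called 0 members at an adjusted p of 0.05, where it called 1.31% of all genes, and had the same 2 at an unadjusted p under 0.05. In CPM the libraries of the genotypes did not overlap in the same 2 members, again 5.0%, against 13.9% of all tested genes in either direction and 6.47% for lower values. These shares rest on 0 or 2 of 40 members. At the adjusted thresholds the background is so low that 0 of 40 cannot set the members apart from it. By the unadjusted p and by overlap, the share is below the background in either direction and near it for lower values. Whether the members differ from the background was not tested.

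How large a difference the data allow is given by approximate 95% intervals computed from the fits, taken gene by gene. The SE was the size of the log2 fold change divided by the square root of edgeR's F statistic, and the interval used a t quantile. For all 40 members the interval lay within a 2-fold difference in either direction, and for 28 of them within 1.5-fold. Among all tested genes, of every level, this held for 11663 and 6900 of 15720. The median log2 fold change (knockout over WT) was -0.038 over the 40 members, with 13 values above 0 and 27 below, against -0.013 over all tested genes. For S phase members the median was -0.007 and for G2/M members -0.129.

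**Figure D2:**
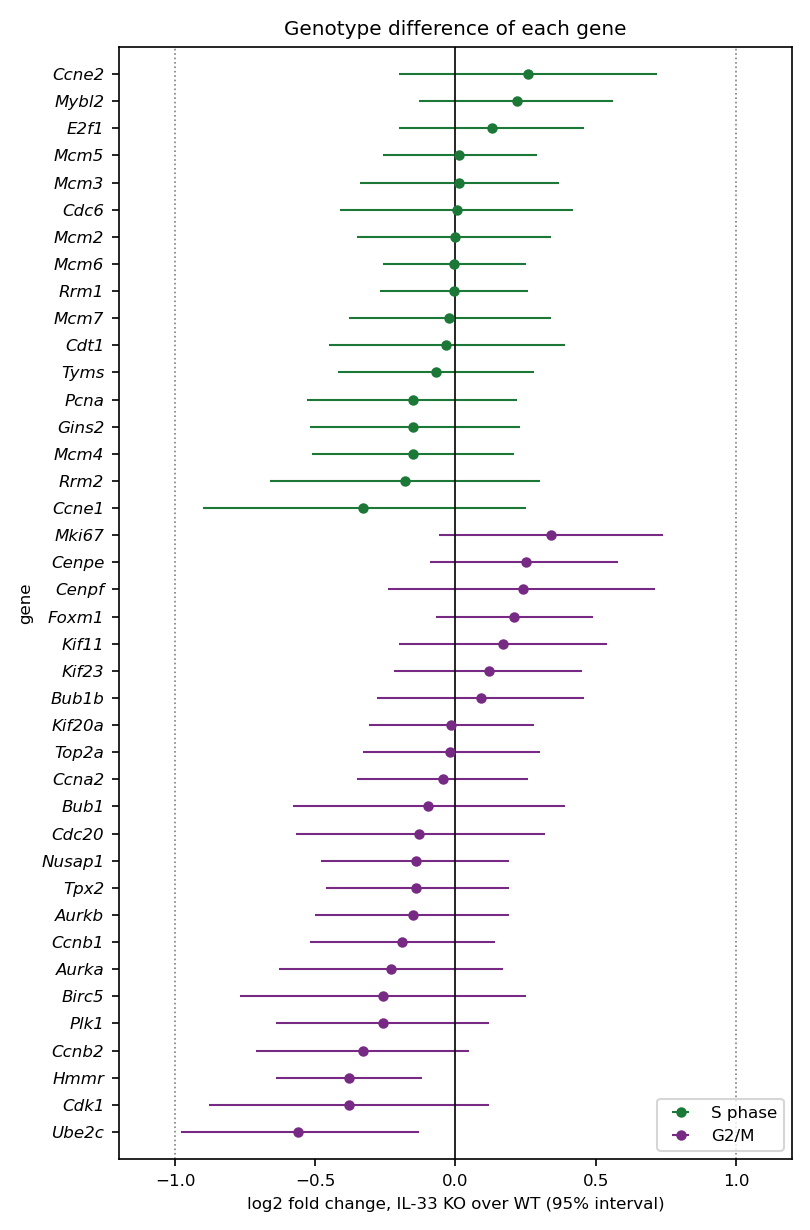
Log2 fold change of each gene (knockout over WT, points) with its approximate 95% interval computed from edgeR's F statistic (bars), S phase genes in green and G2/M genes in purple. Dotted lines mark a 2-fold difference, and no bar reaches them. The intervals of Hmmr (-0.64 to -0.12) and Ube2c (-0.98 to -0.13) lie below 0.

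The median of the S phase genes was close to 0, with single values from -0.33 to 0.26. The MCM proteins form the ring, from Mcm2 to Mcm7, that unwinds DNA at the fork. Their 6 log2 fold changes lay between -0.15 and 0.01 with a median of -0.003, and each of the 6 intervals lay within 1.5-fold. Mcm5 had 94.0, 83 and 99.3 CPM in KO 1, 2 and 3 and 98.1, 89.2 and 86.9 in WT 1, 2 and 3, a log2 fold change of 0.012 with an interval of -0.26 to 0.29. Mcm4 had the lowest value of the 6, with 61.8, 47.8 and 68.5 CPM against 70.6, 69.0 and 58.3 and an interval of -0.51 to 0.21. In both genes KO 2 was the lowest library and the genotypes overlapped. Among the factors that load or start the helicase, Gins2, a subunit of the GINS complex, had 13.0, 12.4 and 13.9 CPM against 13.3, 17.4 and 12.8, where WT 2 alone stood high. Cdt1 and Cdc6, which bring the MCM ring to origins, had 18.0 ± 3.11 and 9.15 ± 1.35 CPM in the knockouts against 18.5 ± 2.93 and 9.11 ± 0.935 (SD, n = 3).

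Genes of nucleotide supply and of the clamp had values slightly below 0. Pcna had 124, 92.9 and 126 CPM in the knockouts against 146, 123 and 113 in WT (log2 fold change -0.15 ± 0.16, SE). Rrm2, the cell cycle regulated subunit of ribonucleotide reductase, had 71.8, 55.0 and 89.7 CPM against 97.5, 81.6 and 66.0 (-0.18 ± 0.21). Both genes spread more within a genotype than between them, with KO 2 lowest and WT 1 highest. Rrm1, the large subunit of the same enzyme, varied less, from 112 to 129 CPM over all libraries, and Tyms, thymidylate synthase, ran from 22.7 in KO 2 to 32.8 in KO 3.

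Upstream of replication, the G1/S regulators were mixed in sign. Ccne2, cyclin E2, had 11.6, 8.73 and 12.7 CPM in the knockouts and 8.21, 8.43 and 10.8 in WT (log2 fold change 0.26 ± 0.20, SE), whereas its close relative Ccne1 had 10.5, 8.18 and 15.1 against 16.6, 14.5 and 11.2 (-0.33 ± 0.25). Neither cyclin E gene separated the genotypes. Mybl2, which encodes B-Myb, had 28.9, 24.5 and 28.8 CPM against 27.2, 23.8 and 19.8. E2f1, a factor that activates S phase genes, had 20.8, 21.0 and 24.3 CPM against 17.3, 22.1 and 20.8, with KO 3 highest, WT 1 lowest and the groups overlapping. Adjusted p was at least 0.681 for each of these 4 genes in edgeR.

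Among the G2/M genes Ube2c held the lowest value. Ube2c, the ubiquitin-conjugating enzyme that works with the anaphase-promoting complex, had 48.5, 36.8 and 58.1 CPM in the knockouts and 76.5, 74.8 and 59.5 in WT. All 3 knockout libraries lay below all 3 WT libraries, though KO 3 and WT 3 nearly met. The log2 fold change was -0.56 ± 0.19 (SE), with an unadjusted p of 0.0170 and an adjusted p of 0.487 in edgeR. Cdc20, its partner in the same step, had 85.3, 62.5 and 103 CPM against 95.2, 101 and 78.3, with full overlap (-0.13 ± 0.19). Whether the values of Ube2c and Cdc20 differ from each other was not tested.

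Hmmr, a microtubule-binding protein of the spindle, also known as a hyaluronan receptor, had 25.1, 22.3 and 24.0 CPM in the knockouts and 30.8, 30.0 and 32.1 in WT. Here the libraries of each genotype were close together and the groups did not overlap. The log2 fold change was -0.38 ± 0.11 (SE), with an unadjusted p of 0.00921 and an adjusted p of 0.440 in edgeR. The exact permutation test of the 6 CPM values gave a two-sided p of 0.1 for Hmmr and for Ube2c, the smallest that 3 against 3 allows. Every gene without overlap gets this value, so it adds nothing to the lack of overlap. In the fits that left out 1 library the value of Hmmr ran from -0.42 to -0.34 and that of Ube2c from -0.72 to -0.40.

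The kinase that drives mitosis and its cyclins had values below 0 without separating the genotypes. Cdk1 had 42.2, 26.9 and 41.1 CPM in the knockouts and 54.3, 52.4 and 36.6 in WT (log2 fold change -0.38 ± 0.22, SE). Ccnb2 had 32.8, 24.3 and 29.5 CPM against 39.2, 40.1 and 29.6 (-0.33 ± 0.17), and Ccnb1 60.9, 51.3 and 66.1 against 77.5, 62.9 and 63.0 (-0.19 ± 0.14). In Cdk1 and Ccnb2 it was WT 3 that lay among the knockout libraries. Ccna2, cyclin A2, which acts in both S phase and G2, showed no such shift, at 55.3 ± 8.10 and 57.0 ± 1.45 CPM (SD, n = 3). Foxm1, the forkhead factor of the G2/M genes, had the opposite sign, with 34.6, 30.8 and 38.5 CPM against 29.5, 29.2 and 31.1 (0.21 ± 0.12).

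Of the mitotic kinases, Plk1, polo-like kinase 1, had 33.8, 25.6 and 36.0 CPM against 41.2, 40.6 and 32.4, and Aurka, the Aurora kinase of the spindle poles, had 21.0, 16.6 and 25.2 against 27.2, 24.6 and 22.0. In both, the genotypes overlapped and KO 2 was the lowest library. Aurkb and Birc5 (survivin), partners in the chromosomal passenger complex, had log2 fold changes of -0.15 and -0.26. Bub1 and Bub1b, of the spindle checkpoint, had 17.7 ± 4.48 and 49.6 ± 8.87 CPM in the knockouts against 18.9 ± 2.69 and 46.6 ± 5.45 (SD, n = 3).

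Genes of the spindle and the kinetochore were split, with 4 values above 0 and 4 below. Cenpe, a kinetochore motor, had 45.2, 37.5 and 44.7 CPM in the knockouts and 37.3, 30.2 and 39.9 in WT (log2 fold change 0.25 ± 0.14, SE). Cenpf, a large kinetochore protein, had 55.9, 46.7 and 54.6 against 41.1, 33.1 and 58.9, where WT 3 exceeded every other library. The kinesin Kif11, which pushes spindle poles apart, and Kif23, which acts in cytokinesis, stood at 0.17 and 0.12, while the cytokinesis kinesin Kif20a had 20.6 ± 2.17 CPM against 20.8 ± 0.763 (SD, n = 3). Tpx2, an activator of Aurora A, had 56.8, 45.2 and 62.7 CPM against 63.5, 58.5 and 58.9, and the spindle protein Nusap1 had 33.9 ± 4.20 and 37.4 ± 4.71 (SD, n = 3).

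The common proliferation markers had values on both sides of 0. Mki67, which encodes the Ki-67 antigen coating mitotic chromosomes, had 291, 247 and 291 CPM in the knockouts and 222, 172 and 260 in WT (log2 fold change 0.34 ± 0.17, SE), the highest value of the set. Its adjusted p was 0.597 in edgeR, and WT 3 lay above KO 2. Top2a, topoisomerase II alpha, had 186, 160 and 184 CPM against 193, 155 and 189, and its value of -0.019 turned sign with other scalings. Among the 4 common markers, Mki67 had a value above 0 and Top2a, Pcna and Cdk1 values below 0, and 0 of the 4 passed the test.

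**Figure D3:**
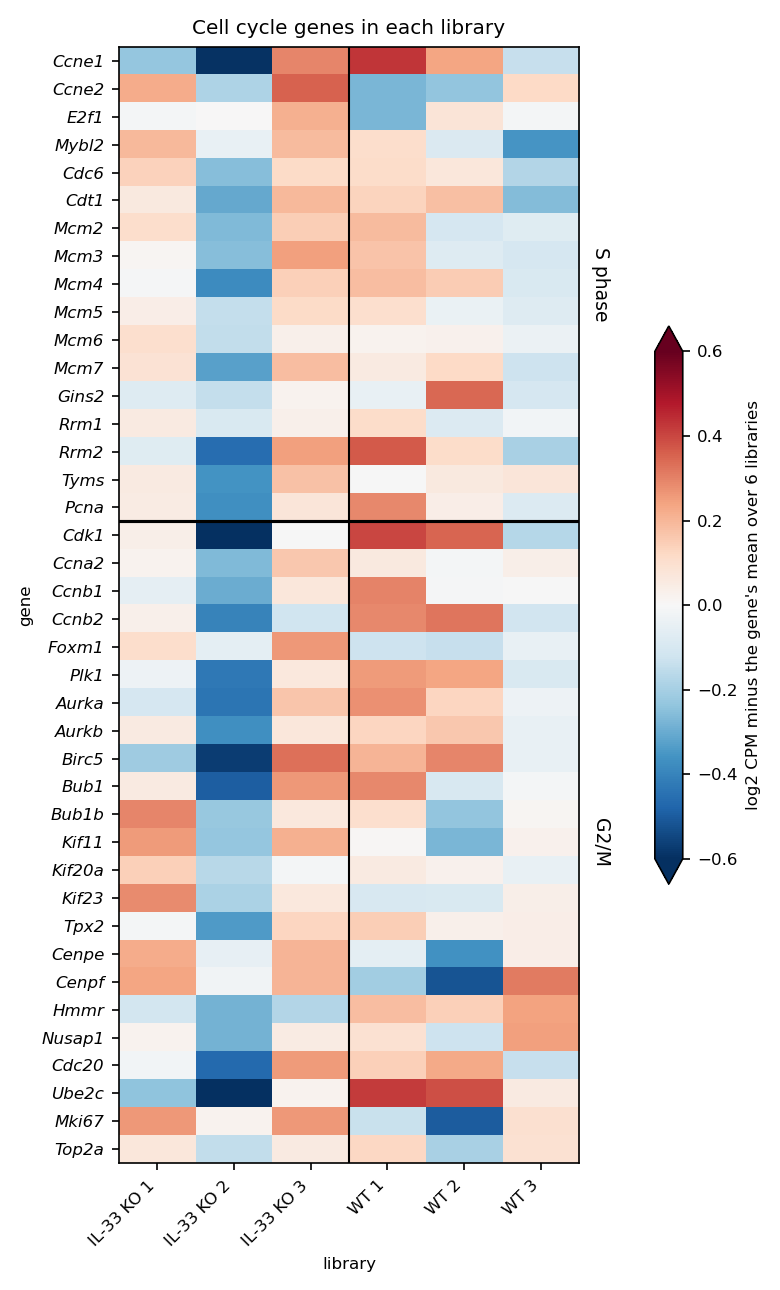
Log2 CPM of each gene (rows, S phase above the line and G2/M below) in each library (columns), relative to the gene's mean over 6 libraries. KO 2 is blue in most rows and is the lowest library for 30 of the 40 genes. WT 1 is the highest library for 14 genes and KO 3 for 11.

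KO 2 was the lowest library for 30 of the 40 genes, 14 of 17 in S phase and 16 of 23 in G2/M, and the highest for 0. Over all tested genes it was the lowest for 3063 of 15720, and over the 91 other cell cycle genes described further on for 56. The mean level of the 40 genes, in log2 CPM relative to the mean of 6 libraries, was 0.051, -0.28 and 0.13 in KO 1, 2 and 3 and 0.11, 0.014 and -0.029 in WT 1, 2 and 3. Both other knockout libraries lay within or just above the WT range. Without KO 2 the median log2 fold change of G2/M members was 0.042 in place of -0.129, and that of S phase members 0.081. Its total of 23671769 counts was not low.

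S phase and G2/M genes followed a like order of libraries, lowest in KO 2 for both. S phase levels were 0.043, -0.25 and 0.16 in KO 1, 2 and 3 and 0.097, 0.047 and -0.097 in WT 1, 2 and 3. G2/M levels, in the same order, were 0.057, -0.30 and 0.11, and 0.12, -0.011 and 0.021. The difference of G2/M minus S phase was -0.029 ± 0.037 in the knockouts and 0.029 ± 0.089 in WT (SD, n = 3), and the genotypes overlapped, with WT 2 at -0.058 lowest and WT 3 at 0.12 highest. The difference between the genotype means was smaller than the SD within WT.

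Marker levels are given beside these values. The hair matrix and follicle list had 12 of 12 members higher in every knockout library than in any WT library, where 7.46% of all tested genes were; its summed level was 9770 to 20500 CPM in the knockouts and 2630 to 5460 in WT, with 0 of 12 passing over all genes in edgeR and 9 of 12 in DESeq2, where 1.31% of all genes passed. The mean level of that list was 1.5, 0.45 and 0.88 in the knockouts and -0.87, -1.6 and -0.27 in WT, and its median log2 fold change was 1.84. Of the basal keratinocyte list 1 of 7 had a value above 0, and it summed to 22200 to 31200 CPM in the knockouts, against 26400 to 41600. The suprabasal and the hyperproliferative keratinocyte lists had 6 of 6 values below 0 each, with medians of -0.554 and -0.547, and 0 passed in either tool. Their mean levels overlapped between the genotypes, at -0.97, 0.2 and -0.055 against 0.4, 0.65 and -0.24 for the suprabasal list, and at -0.65, -0.1 and -0.013 against 0.92, 0.33 and -0.49 for the hyperproliferative list. T cell genes (5 of 6 above 0) summed to 25.1 to 38.3 and 17.5 to 31.7 CPM. B and plasma cell genes (6 of 6 tested above 0) summed to 119 to 308 and 12.0 to 28.3, with the B cell gene Ms4a1 at no more than 0.464 CPM. Of these 6, 4 were higher in the knockouts without overlap, and 0 passed in edgeR and 3 in DESeq2. The fibroblast list had 5 of 6 values below 0, 2 without overlap (6.47% of all tested genes were lower without overlap), and 0 passed in either tool. Of the skeletal muscle list 0 of 3 tested passed in edgeR and 3 in DESeq2. The part of these cells in the levels of the division genes was not tested.

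**Figure D4:**
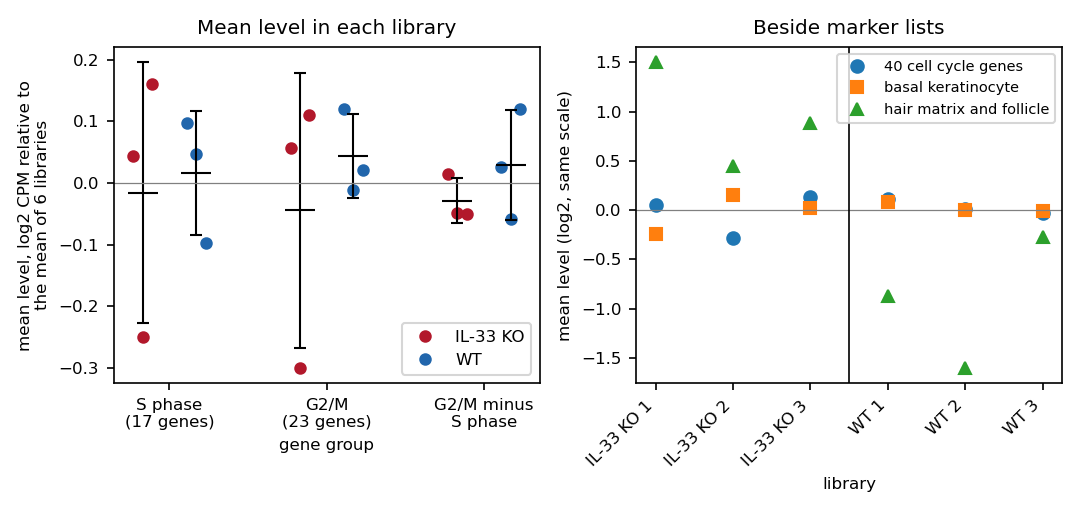
Left, mean level of the S phase and G2/M genes and their difference in each library (points; black bars are mean ± SD of 3 libraries) in log2 CPM relative to the mean of 6 libraries. Right, the mean level of all 40 genes beside basal keratinocyte and hair markers on the same scale, where the hair list runs from -1.6 to 1.5 and the division genes from -0.28 to 0.13.

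One property that the choice of genes did not use ran along with the fold changes, the listed gene length. The 5 members under 2000 bases all had values below 0, with a median log2 fold change of -0.154. Of the 26 members from 2000 to under 4000 bases 19 had values below 0 (median -0.055), and of the 9 of 4000 bases and over 3 did (median 0.171). The longest, Cenpf (11137 bases), Mki67 (10075) and Cenpe (7813), are the 3 G2/M genes with the highest values, while the lowest values belong to Ube2c (2191), Cdk1 (2886), Hmmr (3892) and Ccnb2 (1541), which do not follow the order of length among themselves. Across the 40 members Spearman's rho between length and log2 fold change was 0.60, across the 23 G2/M members 0.72 and across the 17 S phase members 0.31. All points share the same 6 libraries, and genes are not independent replicates.

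All tested protein-coding genes had the same order, with medians of -0.138 under 2000 bases (3715 genes), -0.04 in the middle class (6077) and 0.079 from 4000 bases (4799), and a rho of 0.32. By library, the mean level of long minus short protein-coding genes was 0.14, 0.21 and -0.074 in KO 1, 2 and 3 and -0.11, -0.27 and 0.11 in WT 1, 2 and 3, on the log2 scale. That same difference within the division genes was 0.15, 0.27 and 0.074, and -0.24, -0.38 and 0.12. WT 3 lay with the knockout libraries and the genotypes overlapped in both. With the length trend of all tested genes subtracted, an alternative chosen after seeing the data, the G2/M median was -0.083 and the S phase median -0.019.

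**Figure D5:**
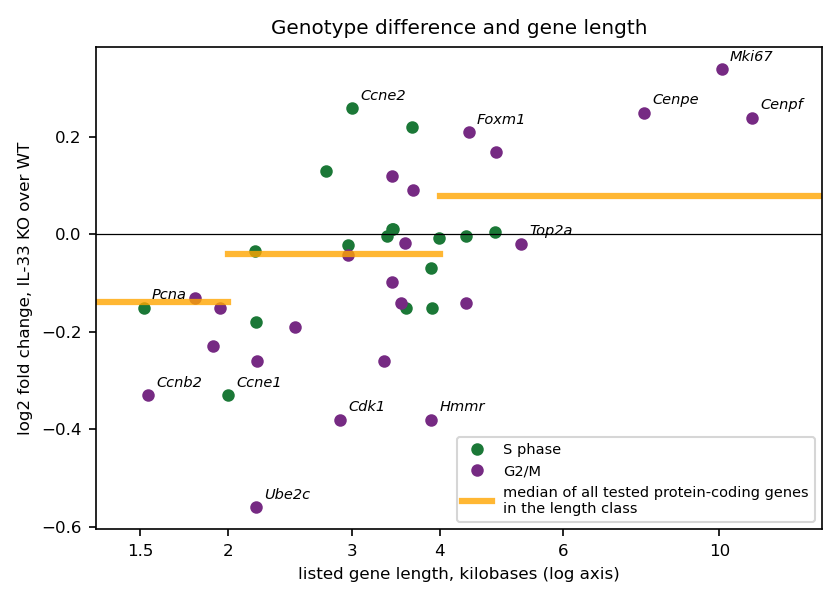
Log2 fold change (knockout over WT) of each gene against its listed length in kilobases (log axis), S phase in green and G2/M in purple. Orange bars are the medians of all tested protein-coding genes under 2000, from 2000 to under 4000 and from 4000 bases, at -0.138, -0.04 and 0.079, and the medians of the division genes follow the same order.

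Beyond the set, 91 other genes of the cell cycle machinery were all tested, and 0 passed in edgeR in either direction (smallest adjusted p 0.341). Of these 8 had an unadjusted p under 0.05 in edgeR, or 8.79% against the background of 9.02%. In CPM the genotypes did not overlap in 15 of the 91 (16.5%, against 13.9% of all tested genes). Of these 9 were lower in the knockouts (9.89%, against 6.47%) and 6 higher (6.59%, against 7.46%). The median log2 fold change of the 91 was -0.061. In DESeq2 2 of the 91 passed (2.2%, against 1.31% of all genes), Ccnd2 and E2f2. Ccnd2, cyclin D2, which starts the retinoblastoma step in G1, had 206, 178 and 175 CPM in the knockouts and 83.2, 82.2 and 142 in WT (log2 fold change 0.86 ± 0.22, SE, adjusted p 0.390 in edgeR and 0.0285 in DESeq2). Ccnd1 had 135, 123 and 143 against 111, 88.2 and 110 (0.38 ± 0.13). These D cyclins were higher in the knockouts without overlap, as 7.46% of all tested genes were, whereas the third, Ccnd3, had 41.6, 41.4 and 52.8 CPM against 41.6, 52.8 and 54.0, with overlap and a log2 fold change of -0.13 ± 0.15.

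E2f2, an activating E2F, had 39.8, 33.1 and 38.6 CPM against 18.3, 17.1 and 27.0 (log2 fold change 0.83 ± 0.19, SE, adjusted p 0.341 in edgeR and 0.0171 in DESeq2). Tfdp2, a dimer partner of E2F factors, had 33.3, 34.5 and 25.6 CPM against 20.4, 20.9 and 25.3, so that KO 3 and WT 3 almost met. Over the libraries E2f2 followed the order of the hair list. Ccnd2 did so too, except that KO 2 (178 CPM) lay just above KO 3 (175). Tfdp2 did not, since it was highest in KO 2, the knockout library with the lowest hair level (0.45). These genes and the hair list all separate the genotypes, so only the order within a genotype was free to differ. The part of the hair list was not tested. Ccnd2, E2f2 and Tfdp2 are also long, at 5701, 4739 and 7354 listed bases.

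In the other lists the genes with the smallest p were as follows. Among CDK inhibitors, Cdkn2a, which encodes p16 and p19Arf, had 2.32, 1.22 and 1.69 CPM in the knockouts and 2.17, 5.11 and 3.94 in WT, with overlap, and Cdkn1c (p57) had 16.0 ± 1.15 and 10.6 ± 5.78 (SD, n = 3). Of the kinetochore and separation genes, Pttg1, securin, which holds separase in check, had 10.4, 10.3 and 10.2 CPM against 14.6, 20.6 and 11.9, and Spc25, of the NDC80 complex, 15.6 ± 3.74 and 20.4 ± 0.507. Pttg1, at 1674 listed bases, and Spc25 were lower in the knockouts without overlap, as 6.47% of all tested genes were.

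All 12 genes of the further cytokinesis and exit list had values below 0 (log2 fold change -0.44 to -0.01, median -0.130). Over all tested genes 8176 of 15720 had values below 0. KO 2 was the lowest library for 8 of the 12. In this list the phosphatase gene Cdc14b had 14.2 ± 1.64 and 18.3 ± 1.61 CPM and Cks1b, a Cdk-binding subunit, 38.9 ± 8.61 and 51.1 ± 7.29 (SD, n = 3). Cdc45 of the replicative helicase, at 18.5 ± 4.70 and 13.6 ± 0.738 CPM, and Orc2 of the origin recognition complex, at 24.5 ± 0.637 and 20.5 ± 2.79, led the list of other replication genes. The phosphatase gene Cdc25b, at 49.4 ± 3.51 and 57.8 ± 1.93, and the inhibitory kinase gene Wee1, at 11.2 ± 1.31 and 13.8 ± 0.964, led the checkpoint list. Cdc14b, Cdc25b and Wee1 were lower in the knockouts without overlap, as 6.47% of all tested genes were, and Orc2 higher, as 7.46% were. The smallest adjusted p among these 6 genes was 0.533 in edgeR, and 0 passed.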

How the data were processed

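The authors deposited whole-number read counts per gene and FPKM values for the 6 libraries. The submitters' processing notes name STAR, RSEM and the build mm10 without versions; how strand was treated is not stated there, so overlapping antisense genes may share reads. Deposited counts entered the tests as they stand. Each deposited FPKM equals the count divided by listed length and by the library's sum, with a largest relative deviation of 2.78e-07. The genotypes were compared by edgeR 4.0.16 under R 4.3.3 (filterByExpr, TMM, glmQLFit, glmQLFTest, two-sided, Benjamini-Hochberg over 15720 genes, threshold 0.05). Alternatives used DESeq2 1.42.0, limma 3.58.1 on log2(FPKM + 1) and log2(FPKM + 0.1) and limma-voom, other size factors and filters, robust dispersion, a block on the replicate number, and each library left out. Mean levels are log2 CPM with a prior count of 2. All pairs of libraries differed beyond sampling noise (chi-square per degree of freedom at least 31.7). On simulated counts with known changes, edgeR recovered 0.0% of 1.5-fold and 52.0% of 2-fold changes at the threshold of 0.05. DESeq2 recovered 12.0% and 76.0%. The changed genes, 50 for each fold, were drawn at random from tested genes of all but the lowest levels, so these rates are not those of the members. The median SE of the log2 fold change was 0.16 among the members and 0.19 over all tested genes. Unchanged genes made up 10.2% of the simulated calls in edgeR and 24.7% in DESeq2. Values in every library were given for Mki67, Top2a, Pcna and Cdk1 and, in each of 8 role groups, for the 2 members with the smallest p and the one with the highest FPKM; in lists of other pathway genes those that pass or else the 2 with the smallest p were named. Other genes were named after their values were seen. The members and all lists were chosen with earlier results of these data known.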

Additional observations from a re-analysis of the deposited data

How the results depend on the processing

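Under all 18 other fits run 0 of 40 members passed the threshold (smallest adjusted p 0.148). The count of all genes that passed, 3 with 2 higher and 1 lower, was 5 (4 higher, 1 lower) with upper quartile scaling and with total counts, 33 without a filter, 206 in DESeq2, 11 in limma-voom, 15 with log2(FPKM + 1), 11 with log2(FPKM + 0.1), 22 with log2(FPKM + 1) unfiltered, and 2 to 24 over the fits that left out 1 library; the cause was not tested. Over those fits the median log2 fold change ran from -0.144 to 0.059 for all members, from -0.12 to 0.081 in S phase and from -0.23 to 0.042 in G2/M, and the G2/M median minus the S phase median (-0.122) from -0.111 to -0.038. Members at an unadjusted p under 0.05 numbered 1 to 6 there, with 6 of 40 without WT 3, all of them G2/M genes (26.1% of 23, and 0 of 17 in S phase), where 17.2% of all genes had one. Top2a turned to 0.0013 with upper quartile scaling, 0.061 with total counts, 0.064 with log2(FPKM + 1), filtered or not, and 0.066 with log2(FPKM + 0.1). With 1 library left out, 17 of the 40 members turned sign, among them, of the members with fold changes given here, Top2a (-0.11 to 0.045), Mcm5 (-0.048 to 0.081), Kif23 (-0.0081 to 0.23), Cdc20 (-0.31 to 0.042) and Gins2 (-0.23 to 0.0087). Over all fits the count was also 17, none of them past 0.15 in size in the reported fit. Deviations from the genotype mean correlated at -0.264, -0.117 and -0.378 between libraries of the same replicate number. Between libraries of different numbers they correlated at -0.0367 to 0.275. This gave no sign of pairing and cannot exclude it, since deviations within 3 libraries sum to 0 and so constrain each other. With the replicate number as a block 2 genes and 0 members passed, with medians of -0.008 in S phase and -0.142 in G2/M. A fit without 1 library leaves 2 in a genotype, which are assumed to vary like the other 3. With 3 libraries per genotype the 95% interval reached past 1.5-fold for all but 28 of the 40 members.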
